A study of Mus musculus with 3 samples.

Results

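The respiratory chain genes encoded in the nucleus were followed through single cells of mouse bladder and of bladder assembloids. They were taken by symbol, as every mouse gene beginning with Ndufa, Ndufb, Ndufc, Ndufs, Ndufv, Uqcr, Cox4 to Cox8 or Atp5, leaving out Ndufa4l2. This rule found 88 gene IDs among the 31053 mouse IDs listed, the same 88 in each of 3 libraries. Of these, 36 belong to complex I, 8 to complex III, 18 to complex IV, 16 to ATP synthase and 10 are assembly factors or related genes. The 13 protein genes of the mitochondrial genome, written mt-, were set beside them.

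The libraries came from 7-day assembloids, from 1-day assembloids and from adult bladder. The assembloids are constructs rebuilt in culture, dissociated after 7 days or after 1 day, with 3 assembloids pooled in each case; the labels used here give no strain for them. The bladder library was a pool of 8 wild-type C57BL/6 bladders from mice aged 8 to 9 weeks. Each group had 1 library, so no replicate error can be given and no test between groups was possible. Intervals below, in brackets, are 95% intervals. Those of a level or of a ratio of counts cover counting error only. Those beside a median are order-statistic intervals over the genes of the set, not counting error.

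Oxidative phosphorylation draws on both genomes. Complex I takes electrons from NADH, complex III passes them from ubiquinol to cytochrome c, complex IV hands them to oxygen, and ATP synthase uses the proton gradient that results. Most subunits are made from nuclear genes and imported, while some core subunits of complexes I, III and IV and part of the proton channel of ATP synthase are made inside the organelle. Low oxygen is known to act on this machinery through hypoxia-inducible factors, which induce Ndufa4l2, a relative of the complex IV subunit Ndufa4, and Bnip3, a receptor for mitochondrial removal. In several tissues Cox4i2, the second isoform of the complex IV subunit Cox4, is induced by low oxygen as well.

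Cells were classed by UMIs (unique molecular identifiers, counted molecules) of marker genes, none of them a member. The urothelial class held 2106, 1449 and 2686 cells in the 7-day, 1-day and bladder libraries, and all 14 urothelial markers were at least 2-fold over the other cells in each library. The stromal class held 3020, 3155 and 1452 cells, the endothelial class 907, 444 and 1061, and the muscle class 309, 79 and 444. In the 1-day library 2893 cells took no class, and there 1 of 12 stromal markers and 6 of 10 muscle markers were 2-fold over the other cells, so these labels rest on less there. A urothelial cell was called hypoxic with at least 10 UMIs per 10000 over 9 hypoxia genes. This was met by 404 cells (19.2%) of the 7-day, 944 (65.1%) of the 1-day and 6 (0.223%) of the bladder urothelium, with 94, 179 and 12 cells lying within 20% of the cut. The 7-day library stood apart in its makeup. By nearest neighbours in the other libraries, found without members, mt- genes or hypoxia genes, 4338 of its 8144 cells lay on the assembloid side, 3551 on the bladder side and 255 between, so its main results are also given by side. The 7-day library shared 114 barcodes with the 1-day and 30 with the bladder library, and the 1-day library shared 21 with bladder. Each was kept only where it had most UMIs.

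Gene starts of 71 of the 87 member symbols were found in RefSeq's promoter table for GRCm38.p6, the mm10 assembly, giving 76 windows. Below are the 250 bases upstream of the start for 4 members on which the results turn: Ndufa4, which had opposite directions in urothelium and the other classes, and Cox5a, Atp5g1 and Ndufaf4, which were among the members with the highest ratios of assembloid to bladder. They lie at chr6:11907451-11907700 on the minus strand (Ndufa4), chr9:57520982-57521231 on the plus strand (Cox5a), chr11:96075632-96075881 on the minus strand (Atp5g1) and chr4:24897833-24898082 on the plus strand (Ndufaf4). Capitals mark matches, on either strand, to ACGTG or GCGTG (the core of hypoxia response elements), the core motif of NRF1 (a regulator of respiratory chain genes) or CCGGAAG (GABPA, another such regulator, and its relatives).
Ndufa4: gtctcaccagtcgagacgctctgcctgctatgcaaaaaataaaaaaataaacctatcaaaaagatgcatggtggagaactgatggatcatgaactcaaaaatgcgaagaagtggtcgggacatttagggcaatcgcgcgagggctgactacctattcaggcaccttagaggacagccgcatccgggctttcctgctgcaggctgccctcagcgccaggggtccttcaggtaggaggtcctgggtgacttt
Cox5a: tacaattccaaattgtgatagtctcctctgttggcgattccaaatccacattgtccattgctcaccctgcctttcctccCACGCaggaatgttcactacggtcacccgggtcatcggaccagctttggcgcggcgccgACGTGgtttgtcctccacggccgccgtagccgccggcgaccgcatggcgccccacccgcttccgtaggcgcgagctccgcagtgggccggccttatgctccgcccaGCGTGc
Atp5g1: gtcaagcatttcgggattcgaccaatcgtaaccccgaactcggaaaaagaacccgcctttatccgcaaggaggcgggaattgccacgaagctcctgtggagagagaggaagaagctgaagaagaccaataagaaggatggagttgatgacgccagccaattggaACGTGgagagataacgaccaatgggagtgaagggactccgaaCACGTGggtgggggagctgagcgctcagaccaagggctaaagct
Ndufaf4: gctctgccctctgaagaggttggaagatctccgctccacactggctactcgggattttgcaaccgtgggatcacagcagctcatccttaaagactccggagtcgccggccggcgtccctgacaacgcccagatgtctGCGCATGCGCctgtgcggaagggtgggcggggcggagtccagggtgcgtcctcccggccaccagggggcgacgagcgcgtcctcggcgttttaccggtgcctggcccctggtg
The Ndufa4 window had no match to any of them. The NRF1 motif was in 13 of 76 member windows (17.1%), against 3.74% of all 32851 windows of the table, and the GABPA letters in 13 (17.1%), against 6.91%. ACGTG was in 14 member windows (18.4%), against 16.6% of all windows, and GCGTG in 31 (40.8%), against 28.2%. These are letters in a window, not sites shown to be bound. Each motif holds the letters CG, and the windows compared were not matched for base composition. The part of base composition in these shares was not tested.

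Levels are given as CPM, a gene's UMIs scaled to a common total of all mouse UMIs of the class. CPM from 3′ counts were compared between groups, not between genes. Summed over the 88 nuclear members, muscle had 28542, 30429 and 25851 CPM in 7-day, 1-day and bladder cells. Urothelium had 24813, 25562 and 24053 CPM, a range narrower than in any other of the 4 classes. Stroma had 23389.6, 24796 and 14308.5 CPM, and endothelium 22400.0, 24249 and 14960.1 CPM. On this scale muscle stood highest in each library, with log2 ratios of urothelial over muscle sums of -0.20, -0.25 and -0.10 in the 7-day, 1-day and bladder libraries. The TMM scaling turned the order in 2 of the 3, with ratios of 0.20, -0.17 and 0.39. In stroma and endothelium the 2 assembloid libraries lay close together, with bladder well below them. In urothelium and muscle the 7-day sum lay about midway between the 1-day and the bladder sum.

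**Figure D1:**
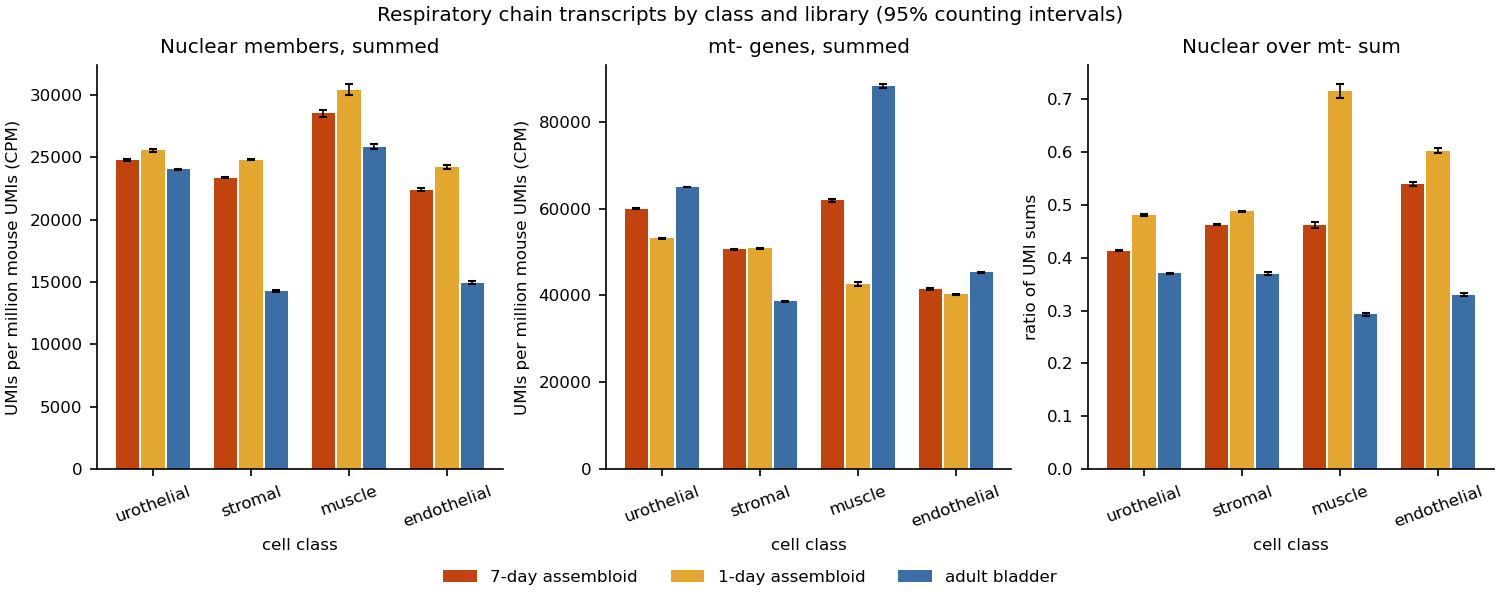
Bars give the summed level of the 88 nuclear members (left, in CPM), the summed level of the 13 mt- genes (middle, in CPM) and the ratio of the sums (right) for each cell class, with 7-day, 1-day and bladder cells from left to right, and lines are 95% counting intervals. Nuclear sums of stroma and endothelium are lower in bladder (14308.5 and 14960.1 CPM), bladder muscle has the highest mt- sum (88221 CPM), and the small excess of 1-day over bladder urothelium in the left panel reverses with another scaling (TMM).

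The mt- genes did not follow the same order. Their sum was 59963, 53167 and 64924 CPM in 7-day, 1-day and bladder urothelium, and 61862, 42550.2 and 88221 CPM in muscle. Stroma had 50611, 50814 and 38668 CPM, and endothelium 41501, 40224 and 45296 CPM. The ratio of nuclear to mt- UMIs was therefore higher in assembloid than in bladder cells in every class. It was 0.461, 0.715 and 0.293 in 7-day, 1-day and bladder muscle, 0.540, 0.603 and 0.330 in endothelium, 0.462, 0.488 and 0.370 in stroma, and 0.414, 0.481 and 0.370 in urothelium. In assembloid-side 7-day cells alone the ratios were 0.724 in muscle, 0.648 in endothelium, 0.464 in stroma and 0.491 in urothelium.

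The urothelium of 1-day assembloids differed from that of the bladder in a few subunits and in the mitochondrial transcripts, not in the nuclear set as a whole. Of 74 members measured (at least 20 CPM in the higher group), 7 were called higher in 1-day cells (at least 1.5-fold, with an interval excluding 1) and 2 lower, while 26.7% of all 5770 genes tested were called higher and 12.6% lower. The median log2 ratio of 1-day over bladder cells was 0.24 [0.12, 0.29] over the members and 0.22 over all genes tested. With the TMM scaling, which shifts all log2 ratios of this comparison down by 0.36, the median over members was -0.12, with 0 members called higher and 9 lower. The urothelial cells also differed in depth, with medians of 4831 UMIs per cell in the 1-day and 21358 in the bladder library.

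The members called higher in 1-day urothelium came mostly from complex I, which holds 36 of the 88 members. With the TMM scaling 0 were called higher. Ndufc1, an accessory subunit, had 242, 353 and 192 CPM in 7-day, 1-day and bladder cells, and its log2 ratio of 1-day over bladder was 0.87 [0.81, 0.93]. Uqcrfs1, the Rieske iron-sulfur protein of complex III, had 127, 181 and 105 CPM (0.79 [0.71, 0.87] for 1-day over bladder). Ndufb7, Ndufv3, Ndufs7 and Ndufa8 of complex I had log2 ratios of 0.70, 0.69, 0.68 and 0.66. Ndufs7, which carries an iron-sulfur cluster next to the quinone site, stood at 144, 188 and 117 CPM. Ndufaf3, an assembly factor of complex I, was the other member called higher. Among measured complex IV subunits, 0 of 11 were called higher, and the ratios of the 15 measured ATP synthase members ran from -0.47 (Atp5e, the epsilon subunit) to 0.54.

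Ndufa4 and Cox4i1 were the members called lower in 1-day urothelium. Ndufa4, once assigned to complex I and now placed in complex IV, had 387, 227 and 429 CPM in 7-day, 1-day and bladder urothelium (log2 ratio of 1-day over bladder -0.92 [-0.99, -0.85]). Cox4i1, the common isoform of Cox4, had 1532, 1051 and 1618 CPM (-0.62 [-0.65, -0.59]). Both stayed lower in 1-day cells under each scaling and cell filter run, Ndufa4 at -0.90 with cells thinned to 2500 UMIs and at -1.28 with TMM. In the other classes the same comparison gave Ndufa4 the opposite sign. It had 692, 661 and 337 CPM in 7-day, 1-day and bladder stroma, 694, 863 and 520 CPM in muscle, and 597, 583 and 380 CPM in endothelium, and the log2 ratios of 1-day over bladder were 0.97, 0.73 and 0.62 in these classes. Cox4i1 stood at 1008, 1071 and 609 CPM in stroma (0.81 for 1-day over bladder), so it too had opposite signs in urothelium and stroma. A test of these differences between classes was not possible with 1 library per group.

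**Figure D2:**
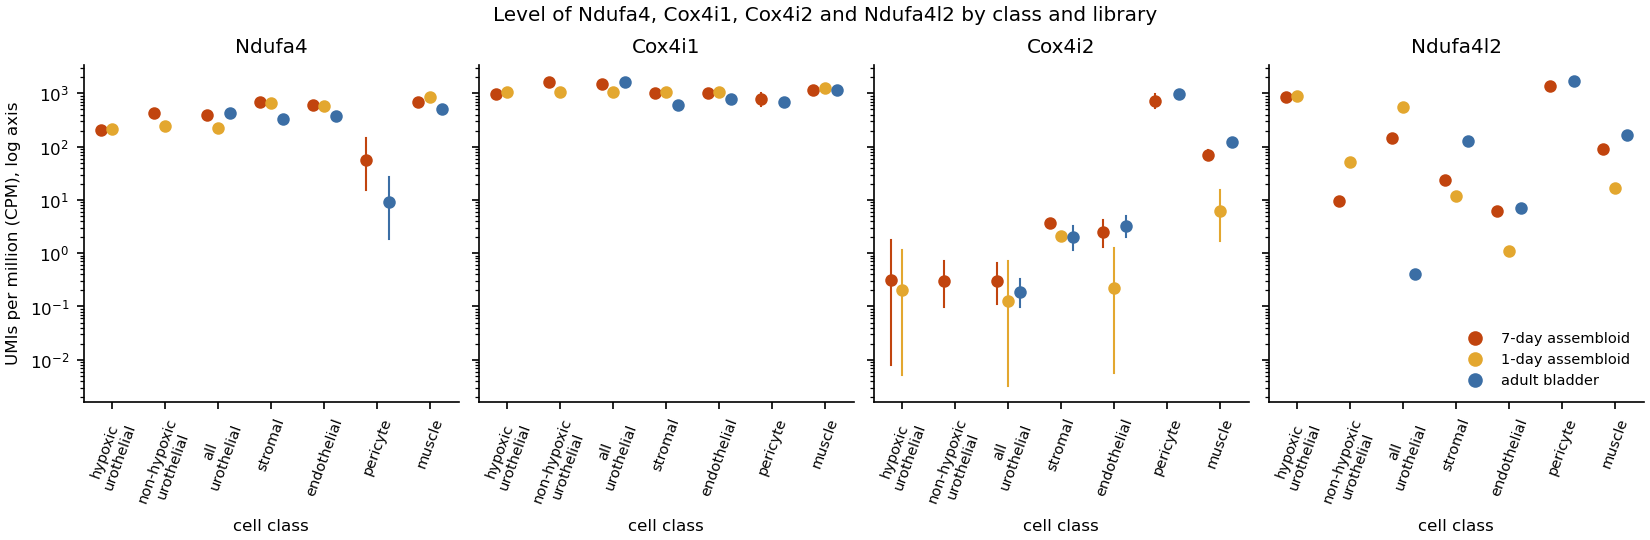
Points give the level of Ndufa4, Cox4i1, Cox4i2 and the hypoxia gene Ndufa4l2 in each cell class on a log axis, with 7-day, 1-day and bladder cells from left to right and 95% counting intervals for the members; classes with no UMI or too few cells (hypoxic bladder urothelium, 1-day pericytes) have no point. Ndufa4 is near 200 CPM in hypoxic urothelium and lowest in pericytes (57.1 CPM in 7-day and 9.11 CPM in bladder cells), where Cox4i2 and Ndufa4l2 are highest. The 7-day points hold both sides, and most non-hypoxic 7-day cells lay on the bladder side. Over the alternatives run, the Ndufa4 log2 ratio of hypoxic over non-hypoxic 1-day cells ranged from -0.23 to -0.09.

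The mt- genes of 1-day urothelium were mostly lower. Of 13, 4 were called lower and 2 higher (12.6% and 26.7% of all genes tested), with a median log2 ratio of -0.51 over bladder. mt-Cytb, the core of complex III, had 5937, 4148 and 6909 CPM in 7-day, 1-day and bladder urothelium, and mt-Atp6 of the ATP synthase proton channel had 11902, 9410.4 and 13470.0 CPM. Against these, mt-Nd2 had 2559, 3968 and 2121 CPM, a log2 ratio of 1-day over bladder of 0.90 [0.89, 0.92]. mt-Nd6, which is read from the other strand of the mitochondrial genome than the remaining protein genes, had 34.3, 92.1 and 15.1 CPM (2.60 [2.46, 2.74]). The transcripts of 1 genome therefore moved in both directions. Over the alternatives run, 1 to 2 of the 13 were called higher and 0 to 8 lower. The mt-Nd6 ratio ranged from 2.24 to 2.68, with its bladder level below 20 CPM.

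In 1-day urothelium the nuclear members did not differ between hypoxic and other cells at the fold used. The summed nuclear level was 25561.9 CPM in hypoxic and 25561.9 CPM in non-hypoxic cells (124799 and 78674 UMIs), a log2 ratio of sums of 0.00 [-0.01, 0.01]. By complex this ratio was 0.034 [0.010, 0.058] for complex I and -0.048 [-0.072, -0.024] for ATP synthase, small and opposite in sign. It was 0.011 [-0.025, 0.048] for complex III, 0.0004 [-0.025, 0.026] for complex IV and 0.047 [-0.018, 0.11] for assembly factors. Of 74 members measured, 0 were called higher and 0 lower, where 3.62% of all genes tested were called higher and 2.12% lower, and the median was 0.00 [-0.04, 0.04] against 0.02 over all genes. The highest ratios were those of Ndufv3 (257 CPM in hypoxic, 199 CPM in non-hypoxic cells, 0.37 [0.23, 0.51]), Ndufs7 (0.27) and Ndufa6 (327 and 271 CPM, 0.27 [0.15, 0.39]). The lowest were those of Cox5b (271 and 326 CPM, -0.26 [-0.38, -0.14]), Atp5g1 (-0.24), Ndufa10 (-0.22) and Uqcr10 (580 and 663 CPM, -0.19 [-0.28, -0.11]). The split rests on hypoxia genes, so Ndufa4l2, at 886 and 52.3 CPM, differs by construction.

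The mt- genes were lower in the hypoxic cells of the same library. Their sum was 47642 CPM in hypoxic and 61930.3 CPM in non-hypoxic cells, a log2 ratio of -0.38 [-0.39, -0.37], and 12 of 13 lay below 0, the exception being mt-Nd6 (95.04 and 87.4 CPM, 0.12). mt-Cytb had 3375.5 and 5373 CPM, the one mt- gene past 1.5-fold. The ratio of nuclear to mt- UMIs was 0.537 in hypoxic and 0.413 in non-hypoxic cells. Hypoxic cells were also somewhat shallower, with median UMIs of 4549 and 5235 per cell, and with every cell thinned to 2500 UMIs the medians were 0.02 over the nuclear members and -0.40 over the mt- genes.

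By level of hypoxia the gap was graded. From the lowest to the highest of 6 bins of hypoxia UMIs per 10000 (under 2, 2 to 5, 5 to 10, 10 to 20, 20 to 40, and 40 or more), with 85, 166, 254, 339, 396 and 209 cells of the 1-day urothelium, the nuclear sum was 25634, 25189, 25798, 25250.1, 25373 and 26608.5 CPM. The mt- sum was 71474, 61245.5, 59283, 56507, 45886 and 33739 CPM. The nuclear sum thus spanned a narrow range with no order along the bins, and the mt- sum was lower in each bin than in the one before it. By complex, the lowest and highest bins had 7441 and 8115 CPM for complex I, and 7258 and 7058 CPM for ATP synthase. Complex III had 3285 and 3293 CPM there, and complex IV 6754 and 7139 CPM. Of the mt- genes, mt-Cytb had 6806 CPM in the lowest and 1717 CPM in the highest bin, mt-Nd4 had 3704.5 and 1298 CPM, mt-Atp6 13909.9 and 4885 CPM, and mt-Co1, the catalytic subunit of complex IV, 12164 and 9719 CPM. Single nuclear members did differ between the end bins. Ndufv3 had 195 CPM in the lowest and 318 CPM in the highest bin, Ndufa6 249 and 390.0 CPM and Cox7a2 470.1 and 640 CPM, while Uqcr10 had 749 and 514 CPM, Cox5b 337.5 and 255 CPM and Atp5g1 349.6 and 253 CPM.

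**Figure D3:**
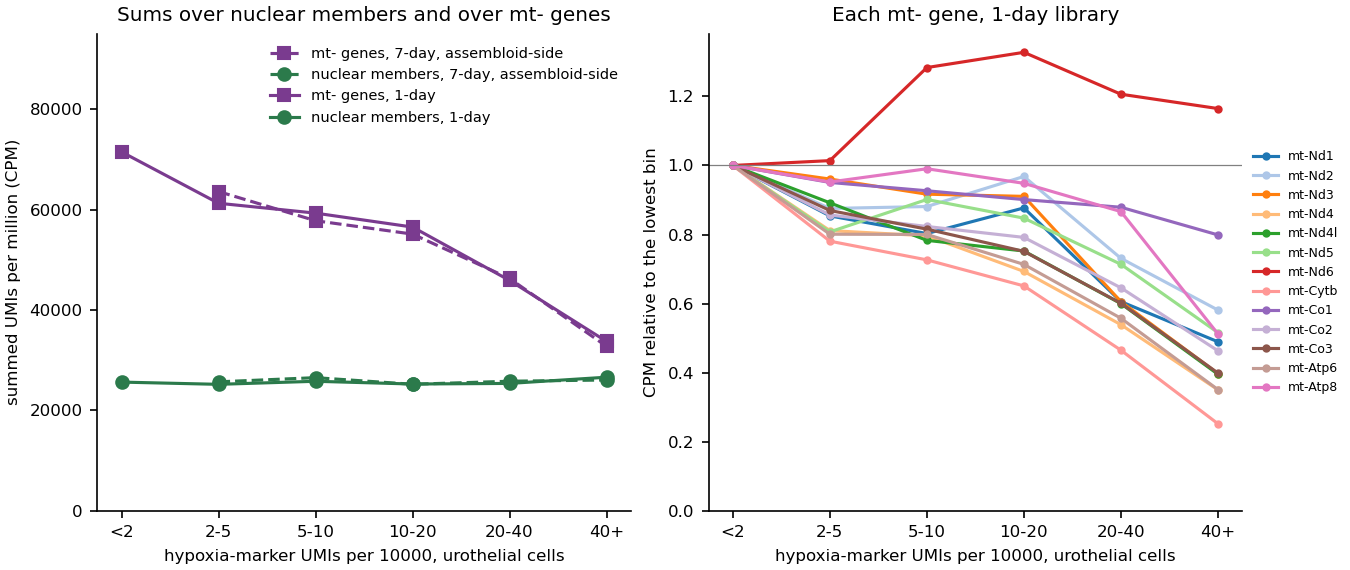
Left, summed level in CPM of the 88 nuclear members (circles) and the 13 mt- genes (squares) in urothelial cells binned by hypoxia-marker UMIs per 10000, for assembloid-side 7-day cells (dashed) and 1-day cells (solid); right, each mt- gene of the 1-day library relative to its lowest bin. Nuclear sums stay between 25189 and 26608.5 CPM in the 1-day library while the mt- sum is 71474 CPM in the lowest and 33739 CPM in the highest bin, with mt-Nd6 alone ending above its first value.

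The 7-day urothelium gave the same picture once its bladder-side cells were set aside. The cells left were chosen by likeness to 1-day cells, so they are no independent repeat. Over all 7-day urothelial cells, 4 members were called higher in hypoxic cells and 2 lower (24.7% and 9.55% of all genes tested), with a median of 0.16 against 0.24 over all genes. The TMM scaling, which shifts all ratios of that comparison down by 0.30, gave a median of -0.13. But 396 of the 404 hypoxic cells and only 221 of the 1702 non-hypoxic cells lay on the assembloid side. Among these, 0 members were called higher and 0 lower (5.8% and 2.55% of all genes tested), the median was -0.01, and the nuclear sum was 25635 CPM in hypoxic and 25979 CPM in non-hypoxic cells. The mt- sum was 46790.0 and 60959 CPM, and the mt- genes were lower in 13 of 13 cases, with a median of -0.45. Ndufa4 had 203 CPM in hypoxic and 421 CPM in non-hypoxic cells over all 7-day urothelium, a log2 ratio of -1.05 [-1.17, -0.94]. Within the assembloid-side cells it had 200.3 and 225 CPM, a log2 ratio of -0.16 [-0.34, 0.01]. Cox4i1 had 996 and 1633 CPM over all 7-day urothelium (-0.71 [-0.77, -0.66]), and 995 and 1035 CPM within the assembloid-side cells (-0.06 [-0.14, 0.02]).

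In stroma the nuclear members were higher in 1-day assembloids than in bladder across every complex. Of 76 measured, 49 were called higher and 1 lower, while 33.2% of all 6578 genes tested were called higher and 27.2% lower. The median log2 ratio was 0.80 [0.61, 0.98] over members and 0.14 over all genes. By complex, 20 of 36 members of complex I, 6 of 8 of complex III, 11 of 12 measured of complex IV and 10 of 15 measured of ATP synthase were called higher. Stromal cells differed in depth, with median UMIs per cell of 18675, 18884 and 5825 in the 7-day, 1-day and bladder libraries, and with cells thinned to 2500 UMIs the median was 0.80 again. The 12 stromal markers, most of them collagens and other matrix genes, made up 10188 CPM in 1-day and 63470 CPM in bladder stroma, and their part in the result was not tested.

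Uqcrq, a small subunit of complex III, led the stromal list. It had 725, 805 and 182 CPM in 7-day, 1-day and bladder stroma, and its log2 ratio of 1-day over bladder was 2.14 [2.07, 2.22]. Cox5a, a structural subunit of complex IV, had 623, 702 and 181 CPM (1.96 [1.88, 2.03]). Ndufa12 and Ndufb8 of complex I had 217 and 254 CPM in 7-day cells, 245 and 289.9 CPM in 1-day cells, and 82.3 and 102 CPM in bladder. Atp5b, the catalytic beta subunit of ATP synthase, had 618, 702 and 249 CPM (1.5 [1.43, 1.56]), and Atp5g1, an isoform of the rotor ring, had 502, 592 and 210 CPM (1.5 [1.43, 1.57]). In all 6 the assembloid libraries lay close together and far above bladder.

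The stromal exceptions were few. Cox6b2, known as an isoform of Cox6b with its main level in testis, had 21.7, 22 and 46.5 CPM in 7-day, 1-day and bladder stroma and was the member called lower (-1.08 [-1.24, -0.91] for 1-day over bladder). Ndufaf3, Uqcrh, Ndufb11, Ndufa1 and Atp5e had ratios between -0.17 and -0.07 and were not called. Uqcrh, the hinge protein of complex III, stood at 451 CPM in 1-day and 507 CPM in bladder stroma.

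Endothelial cells showed a like shift. Of 76 members measured, 51 were called higher in 1-day assembloid than in bladder endothelium and 2 lower, with 34.4% and 31.2% of all 6937 genes tested called in these directions, and the median was 0.82 [0.65, 1.00] against 0.10 over all genes. Ndufaf4, an assembly factor of complex I, had 41.3, 68.8 and 16.7 CPM in 7-day, 1-day and bladder cells (2.03 [1.72, 2.37] for 1-day over bladder). Uqcrq had 461, 746 and 188 CPM (1.99 [1.89, 2.09]), Ndufb6 183, 246 and 66.3 CPM (1.89 [1.73, 2.05]) and Atp5g1 401, 487 and 138 CPM (1.82 [1.71, 1.94]). The members called lower were Cox7a2l, a factor that joins complexes III and IV into supercomplexes, with 427, 291 and 548 CPM (-0.91 [-1.01, -0.82]), and Uqcrh, with 554, 379 and 589 CPM (-0.64 [-0.72, -0.55]). For these 6 genes the level over all 7-day cells lay between the 1-day and the bladder level. Those cells included 315 assembloid-side cells with 3449196 UMIs and 536 bladder-side cells with 1555268 UMIs, so most UMIs were assembloid-side. In assembloid-side cells alone Ndufaf4, Uqcrq, Ndufb6 and Atp5g1 had 53.3, 583, 239.8 and 507 CPM, and Cox7a2l and Uqcrh 333 and 510 CPM. The mt- genes did not rise with the nuclear ones: 0 of 13 were called higher and 5 lower, with a median of -0.25.

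**Figure D4:**
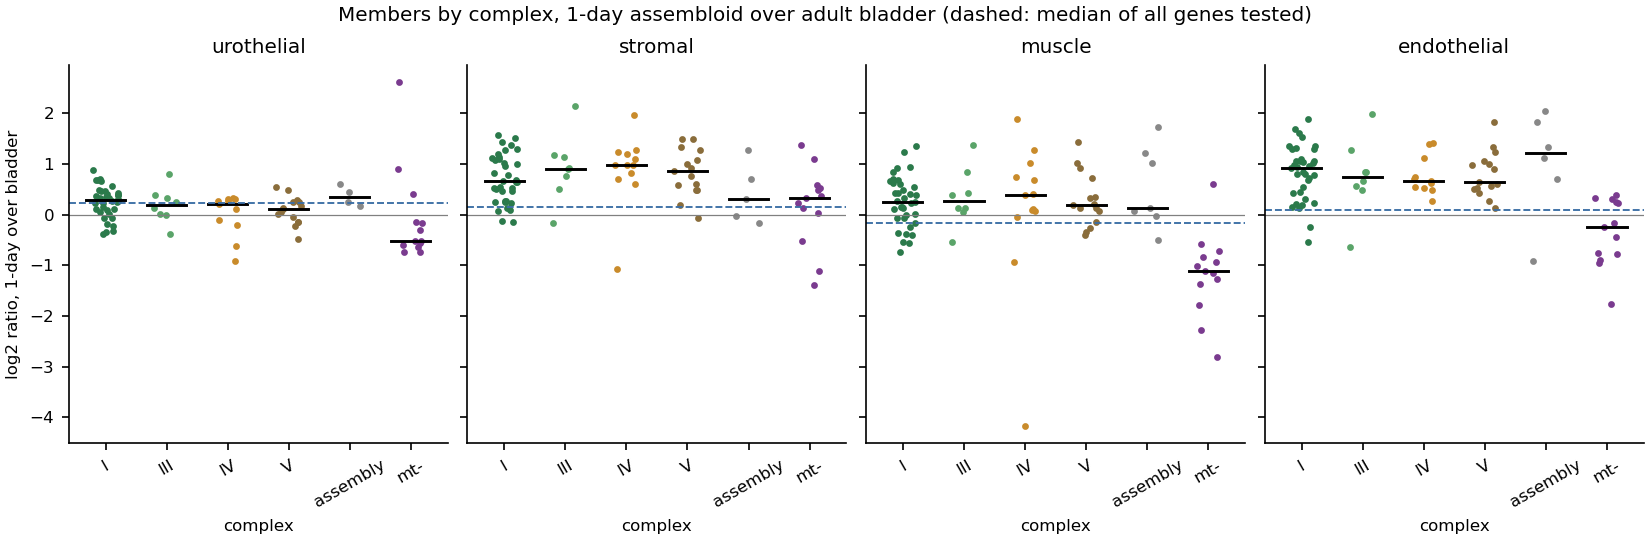
Each point is a measured member, placed by complex (the mt- genes last), with its log2 ratio of 1-day assembloid over adult bladder in urothelial, stromal, muscle and endothelial cells; black bars are medians and the dashed line is the median of all genes tested. The nuclear medians lie above the dashed line in stroma and endothelium (0.80 and 0.82 over all members) and near it in urothelium, where the median of 0.24 becomes -0.12 with the TMM scaling; the mt- medians lie below 0 in urothelium, muscle and endothelium.

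Muscle cells had opposite medians for the nuclear and the mt- genes. Of 79 nuclear members measured, 24 were called higher in 1-day than in bladder muscle and 3 lower (27.5% and 35.7% of all 6183 genes tested), with a median of 0.22 [0.13, 0.41] against -0.16 over all genes. Of the 13 mt- genes, 0 were called higher and 11 lower, with a median of -1.11 [-1.79, -0.72]. Cox5a had 609, 952 and 259 CPM in 7-day, 1-day and bladder muscle (1.88 [1.72, 2.04] for 1-day over bladder) and Atp5g1 527, 644 and 238 CPM (1.44 [1.25, 1.62]). Cox6c of complex IV had 1102, 778 and 1495 CPM (-0.94 [-1.08, -0.81]). mt-Nd3 of complex I had 1091, 281 and 1982.5 CPM, and mt-Cytb 6430, 3897 and 10019 CPM. The 1-day value rests on 79 cells, and without a margin between marker lists, which admits 373 cells, the nuclear median was 0.10 and the mt- median -0.80.

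Taken whole, the 7-day library had members called higher than in bladder in stroma and endothelium, and 0 called in urothelium. Against bladder, which is also the reference of the 1-day values, 45 of 76 stromal members were called higher and 1 lower (31.3% and 25.5% of all genes), with a median of 0.73, and 43 of 75 endothelial members were called higher and 0 lower (25.5% and 23.6%), with a median of 0.65. In muscle 11 of 77 were called higher and 1 lower (19.1% and 24.6%), with a median of 0.14. In urothelium 0 of 74 were called in either direction, where 2.61% of all genes were called higher and 0.535% lower, and the median was 0.08. For the assembloid-side cells alone, 6 of 74 urothelial members were called higher than in bladder and 2 lower (25.6% and 12.4% of all genes), 47 of 76 stromal members higher and 1 lower (32.1% and 26%), 57 of 76 endothelial members higher and 1 lower (33.3% and 30.1%), and 20 of 78 muscle members higher and 4 lower (28.1% and 35.3%). The urothelial calls were Ndufa4 and Cox4i1 on the lower side, with Ndufc1, Uqcrfs1, Ndufv3, Ndufa6, Ndufa8 and Ndufs7 on the higher. As these cells were chosen by likeness to 1-day cells and share the bladder reference, such calls are no independent repeat of the 1-day ones. The medians were 0.24, 0.75, 0.86 and 0.19 in urothelium, stroma, endothelium and muscle. Over the mt- genes they were -0.42 in urothelium and -1.23 in muscle.

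Assembloid-side and bladder-side cells of that library carried different levels. They also differed in depth. Assembloid-side cells had medians of 7315, 23653.5, 5565 and 9736 UMIs per cell in urothelium, stroma, muscle and endothelium. Bladder-side cells had 8838, 2504, 2237.5 and 2401. Assembloid-side 7-day urothelium had 210.1 CPM of Ndufa4 and 362 CPM of Ndufc1, against 429 and 192 CPM in bladder, and against bladder its Ndufa4 ratio was -1.03 [-1.12, -0.94]. Bladder-side 7-day cells lay near the bladder library, with 0 members called higher and 0 lower in urothelium (0.308% and 0.164% of all genes), stroma (0.807% and 1.29%), muscle (1.83% and 2.35%) and endothelium (1.11% and 2.31%), and with the furthest member at -0.19 (Ndufa1) in urothelium and at 0.51 (Atp5g1) in muscle. Their nuclear sums were 24455, 14611, 26454 and 15377 CPM in urothelium, stroma, muscle and endothelium, and those of bladder cells 24053, 14308.5, 25851 and 14960.1 CPM. Because the sides were set by likeness to the other libraries, their nearness is partly fixed by the choice.

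**Figure D5:**
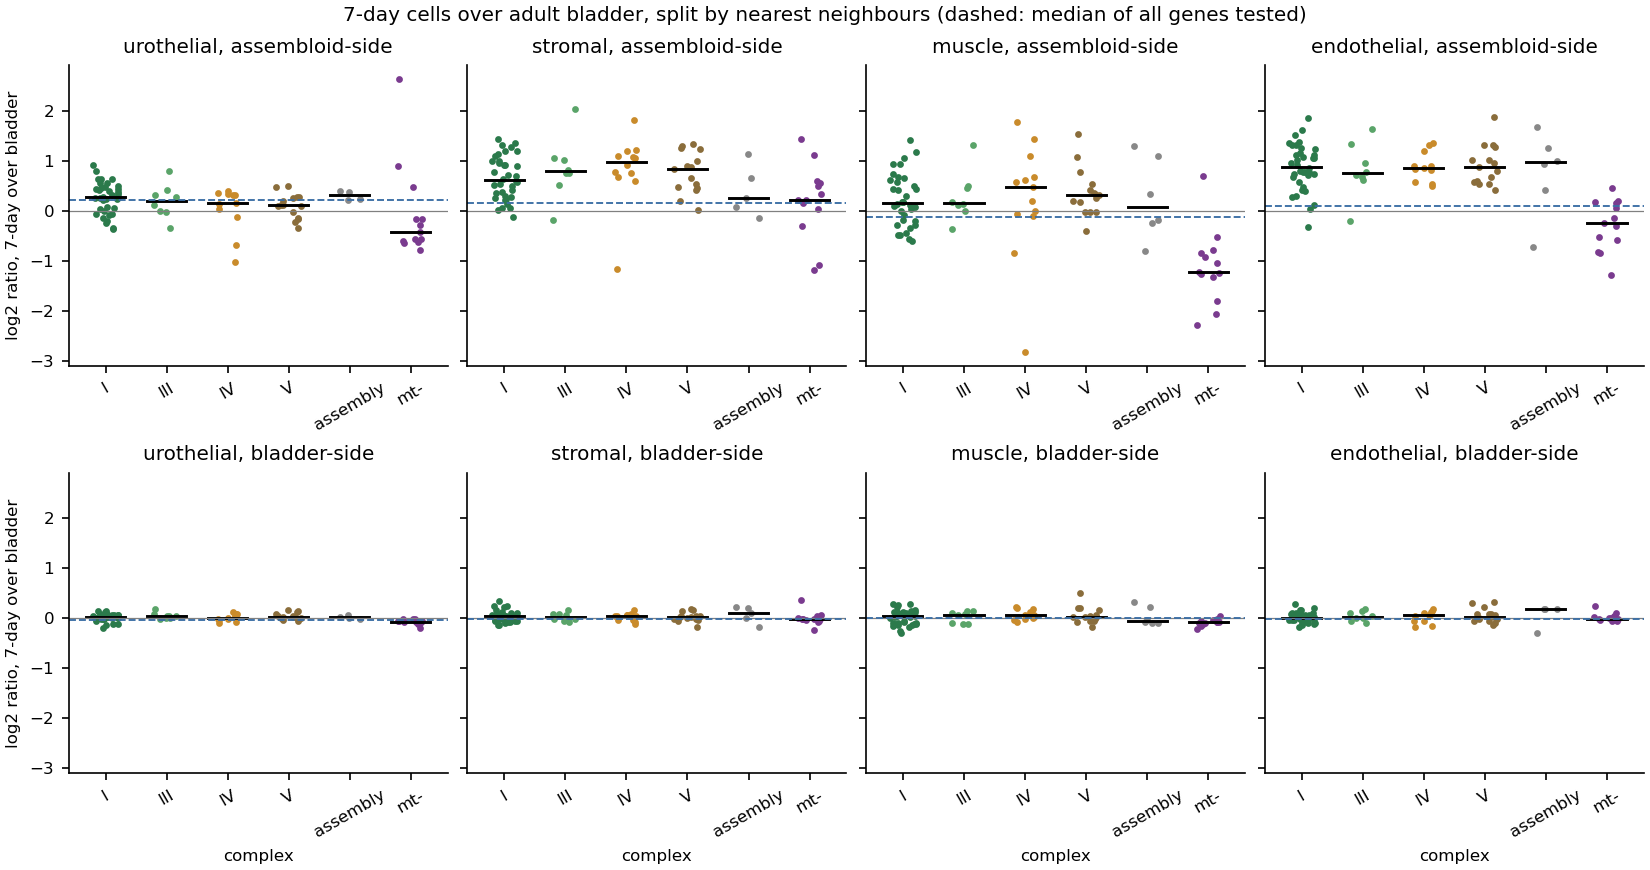
Each point is a measured member with its log2 ratio of 7-day over bladder cells, by complex and class, for assembloid-side cells (top row) and bladder-side cells (bottom row); black bars are medians and the dashed line is the median of all genes tested. Top-row stroma and endothelium are shifted up and the mt- genes of muscle down, with a median of -1.23, and the bottom row lies near 0 in every class.

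Set against 1-day cells directly, assembloid-side 7-day cells differed little. That side was set by likeness to 1-day cells, so this nearness too is partly fixed by the choice. Of 74 urothelial, 76 stromal and 77 endothelial members, 0 were called in either direction. Of all genes tested, 0.109% were higher and 0.633% lower in urothelium, 2.22% and 0.304% in stroma, and 4.95% and 4.54% in endothelium. Of 77 muscle members 1 was called lower, Ndufaf3 at 22.8 and 44.2 CPM, where 4.43% of all genes were called higher and 3.23% lower. The medians were 0.01, -0.06, 0.06 and -0.01 in urothelium, stroma, endothelium and muscle. With all 7-day cells, 1 of 74 urothelial members was called higher, Ndufa4 (0.77 [0.69, 0.84]), and 0 lower, where 8.32% of all genes were called higher and 16.4% lower. The Ndufa4 ratio became -0.11 in the assembloid-side cells, and the urothelial median was -0.14 with all cells, 0.12 with the TMM scaling (which shifts these ratios up) and 0.01 in the assembloid-side cells. In stroma 0 of 76 were called in either direction (3.4% and 0.301% of all genes). In all 7-day muscle, Cox4i2 was called higher (68.9 and 6.10 CPM, 3.34 [2.09, 5.41]) and Cox5a, Ndufs4 and Ndufb4 lower (20.5% and 9.84% of all genes). In endothelium Ndufaf4, Uqcrq and Ndufaf1 were called lower and 0 members higher (9.57% of all genes lower, 15.3% higher).

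Between classes of the same library, nuclear members were higher in urothelium than in stroma in bladder, and their medians lay near 0 in both assembloid libraries. In bladder 39 of 76 members were called higher in urothelial than in stromal cells and 3 lower (26.6% and 38.6% of all genes tested), with a median of 0.60, against 9 higher and 10 lower in the 1-day library (27.9% and 34.9%; median -0.03) and 9 higher and 7 lower in the 7-day library (23.4% and 42.1%; median -0.07). The TMM scaling raised these ratios by 0.23 in the 7-day library, which turned the sign of its median, and by 0.46 in bladder. The sides of the 7-day library differed: in assembloid-side cells 10 of 76 members were called higher in urothelium than in stroma and 10 lower (27.2% and 35.2%; median 0.06), and in bladder-side cells 40 of 76 higher and 3 lower (26.2% and 39.4%; median 0.59). The value over all 7-day cells sets urothelium of mostly bladder-side cells (1469 of 2106) against stroma of mostly assembloid-side cells (2186 of 3020). Against endothelium 39 of 74 members were called higher and 1 lower in bladder urothelium (22.9% and 45.1%; median 0.64), 9 of 76 higher and 15 lower in the 1-day library (23.5% and 42.6%) and 8 of 75 higher and 8 lower in the 7-day library (18.9% and 47.7%). There too the sides differed, with 9 of 76 higher and 13 lower in assembloid-side cells (23.9% and 40.8%) and 40 of 74 higher and 1 lower in bladder-side cells (22.8% and 46%). Against muscle 4 of 77 were called higher and 19 lower in bladder (27.1% and 41.1%), 3 of 77 higher and 27 lower in the 1-day library (35% and 29%), and 2 of 77 higher and 24 lower in the 7-day library (26.3% and 38.4%). The shares called lower were below those of all genes in bladder and in the 7-day library, and the medians of -0.36, -0.31 and -0.23 in the 7-day, 1-day and bladder libraries became 0.04, -0.23 and 0.27 with the TMM scaling. By side, 5 of 76 members were higher and 23 lower in assembloid-side cells (34.4% and 30.3%), and 5 of 77 higher and 19 lower in bladder-side cells (24.6% and 39.4%). Uqcr10 of complex III had 757, 612 and 803 CPM in 7-day, 1-day and bladder urothelium and 331, 376 and 199 CPM in stroma. Cox8a of complex IV had 1231, 1415 and 1222 CPM in urothelium and 823, 961 and 486 CPM in stroma. Relative to their size, the urothelial levels of both genes lay closer together across the libraries than the stromal levels. Cox7a2l was higher in urothelium in the assembloid libraries, with 708 and 779 CPM in 7-day and 1-day urothelium and 366 and 343 CPM in stroma. Within bladder urothelium, cells with 2 or more Krt20 UMIs (umbrella-side) and cells with Krt5 and no Krt20 UMI (basal-side) gave 0 members called higher and 0 lower (0.907% and 0.806% of all genes), with a median of 0.04. The highest ratio was that of Atp5g1, at 378 CPM in umbrella-side and 306 CPM in basal-side cells.

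Isoforms of complex IV differed in where they were detected. Cox4i2 was at 728 CPM in 46 pericytes of the 7-day and 993 CPM in 109 pericytes of the bladder library, against 68.9 and 123 CPM in muscle of these libraries, and it was at most 0.303 CPM in all urothelium and 3.70 CPM in stroma. The 1-day library had 0 pericytes, and its 79 muscle cells had 6.10 CPM of Cox4i2. Pericyte markers summed to 380, 85.4 and 689 CPM in 7-day, 1-day and bladder muscle, in the same order as Cox4i2, and their part in the Cox4i2 levels of muscle was not tested. The hypoxic urothelium, where Ndufa4l2 stood at 861 CPM in 7-day and 886 CPM in 1-day cells, had 0.318 and 0.205 CPM of Cox4i2, each from 1 UMI. Cox6a2, Cox7b2, Cox8b and Cox8c never passed 3.98 CPM over all cells of a class, Cox7a1 reached 18.2 CPM in bladder pericytes, and Cox6a1, Cox6b1, Cox7a2, Cox7b and Cox8a were the forms detected throughout. Of the rotor ring genes, Atp5g1 had the highest ratios of assembloid to bladder in stroma, and Atp5g2 and Atp5g3 had 524 and 265 CPM in 1-day and 278 and 126 CPM in bladder stroma. Cox6a2, Cox7a1, Cox7b2, Cox8b and Cox8c, with Atp5s, Ndufaf6 and the other Atp5o ID, stayed below 20 CPM in every class.

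Bladder pericytes set Ndufa4 and Cox4i2 against each other. Ndufa4 had 9.11 CPM in pericytes, from 3 UMIs, and 520 CPM in muscle, a log2 ratio of -5.61 [-8.11, -4.28]. Cox4i2 stood at 993 and 123 CPM (3.01 [2.78, 3.24]), and Ndufa4l2 at 1747 and 164 CPM. Of 78 members measured, 2 were called higher in pericytes, Cox4i2 and Cox6b2, and 42 lower (19.1% and 13.9% of all genes tested), with a median of -0.64. In the 7-day library, Ndufa4 had 57.1 CPM in pericytes, from 4 UMIs, and 694 CPM in muscle (-3.43 [-5.48, -2.24]), Cox4i2 had 728 and 68.9 CPM (3.41 [2.87, 3.92]), and 2 of 78 members were called higher and 36 lower (13.9% and 6.47%). Of the 46 pericytes of that library 0 lay on the assembloid side and 36 on the bladder side. Pericytes had medians of 1409 and 2908 UMIs per cell in the 7-day and bladder libraries.

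Other genes of the same machinery were called higher with the members in part. The shares of all genes tested that were called higher and lower in 1-day over bladder cells were 26.7% and 12.6% in urothelium, 33.2% and 27.2% in stroma, 34.4% and 31.2% in endothelium and 27.5% and 35.7% in muscle, and the counts below stand against these. Of 68 mitochondrial ribosomal protein genes measured in urothelium, 26 were higher in 1-day than in bladder cells and 1 lower, while in stroma 58 of 72 were higher and 0 lower, and in endothelium 69 of 75 were higher and 0 lower. The electron carriers followed the stromal members: Cycs, cytochrome c, had 239.5 CPM in 1-day and 68.5 CPM in bladder stroma, and Cyc1, the cytochrome of complex III that the symbol rule missed, had 174 and 75.8 CPM. In the citrate cycle 7 of 11 genes were called higher in 1-day stroma and 0 lower, among them Mdh2 with 358 CPM in 1-day and 116 CPM in bladder cells. Of 4 complex II genes, 2 were called higher in stroma, 1 in endothelium and 0 in urothelium. Of the cytosolic ribosomal protein genes, 3 of 91 were called higher and 2 lower in urothelium, 35 of 89 higher and 0 lower in stroma, 9 of 91 higher and 5 lower in endothelium, and 73 of 89 higher and 0 lower in muscle.

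Single regulators and hypoxia targets were also called in urothelium. Ppargc1a, a coactivator of mitochondrial biogenesis, had 20.7 CPM in 1-day and 115 CPM in bladder urothelium, a log2 ratio of -2.47, while Tfam, which packages and transcribes mitochondrial DNA, had 54.6 and 25.2 CPM (1.12). All 7 hypoxia targets that act on mitochondria were called higher in 1-day urothelium (26.7% of all genes tested), among them Bnip3 (271 and 13.3 CPM), Fam162a (861 and 94.5 CPM) and Lonp1, a matrix protease (71.0 and 32.2 CPM). Ndufa4l2, Bnip3 and Pdk1 are also among the 9 hypoxia genes, by which 65.1% of 1-day and 0.223% of bladder urothelial cells were called hypoxic. The list was chosen with earlier results of these data known, so this count is partly fixed by the choice. Between hypoxic and non-hypoxic cells of the 1-day library, 3.62% of all genes tested were called higher and 2.12% lower. The targets that did not define the split included Fam162a (1101 and 480.2 CPM) and Lonp1 (83.6 and 51.0 CPM), both called higher. Ppargc1a and Tfam were not called (0.29 and 0.07). Bnip3l and Higd1a, also outside the split, and the other regulators are not given here.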

How the data were processed

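Single-cell RNA-seq libraries (10x Genomics 3′ v3) of 7-day assembloids, 1-day assembloids and adult bladder were analysed, 1 library per group. The deposited values are whole UMI counts per gene and cell barcode, made with version 3.1.0 of the 10x software per the file headers (named Cell Ranger in the submitters' processing notes), on a combined human and mouse feature list. The processing notes name GRCh38, hg38 and mm10; the annotation release is not given in the sources used here, nor is the way cells were called. The libraries held 9548, 9039 and 8642 barcodes and 120301672, 135955678 and 93560608 UMIs (7-day, 1-day, bladder).

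Cells with at least 90% mouse UMIs, at least 500 genes and under 20% mt- UMIs were kept. Scrublet doublets (206, 274 and 236) were removed, which left 8144, 8245 and 6757 cells. A cell took the class whose marker list had the highest mean log value, if at least 3 markers had a UMI and that mean was at least 2 times the next. The side of a 7-day cell came from its 30 nearest neighbours among the other libraries (at most 5% bladder cells for the assembloid side, at least 95% for the bladder side). A barcode found in several libraries was kept only where it had the most mouse UMIs (117, 20 and 28 dropped). UMIs were summed per class and library and scaled to CPM of mouse UMIs. A log2 ratio adds 0.5 to each sum and has an exact conditional binomial 95% interval, and levels have exact Poisson intervals; reads of near-identical copies such as pseudogenes cannot be told apart, and of the Atp5o symbol 2 IDs were counted separately. Intervals beside medians are order-statistic intervals over members. A change was called at 1.5-fold with an interval excluding 1, among genes of at least 20 CPM in the higher group. In each comparison the 6 highest and 6 lowest members, the isoform families and the mt- genes were open to naming. Members, markers and lists were chosen with earlier results of these data known. Calculations were tested on simulated data and run with Python 3.11.15, numpy 2.4.6, pandas 2.3.3, scipy 1.17.1, scanpy 1.11.5, anndata 0.12.19, scikit-learn 1.9.0 and matplotlib 3.10.9. TMM factors, tried as an alternative scaling, came from edgeR 4.0.16 in R 4.3.3; other alternatives changed the filters on cells and genes, the class margin, the hypoxia cut, the depth (thinning) and the weighting of cells.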

Additional observations from a re-analysis of the deposited data

Results flagged for a closer look

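Some members and mt- genes were called in opposite directions in different classes when 1-day assembloid was set against adult bladder. With 1 library per group, none of these differences between classes was tested. Ndufa4 had a log2 ratio of -0.92 in urothelium (227 CPM in 1-day and 429 CPM in bladder cells), 0.97 in stroma (661 and 337 CPM), 0.73 in muscle (863 and 520 CPM) and 0.62 in endothelium (583 and 380 CPM). Cox4i1 had -0.62 in urothelium (1051 and 1618 CPM) and 0.81 in stroma (1071 and 609 CPM). Cox6b2 had -1.08 in stroma (22 and 46.5 CPM) and 1.28 [0.26, 2.21] in muscle (24.4 and 10.2 CPM). These levels lay near the minimum of 20 CPM, and the muscle interval is wide. Cox6c had 0.69 in stroma (665 and 411 CPM) and -0.94 in muscle (778 and 1495 CPM).

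Among the mt- genes, mt-Nd1 had 1.1 in stroma (3609 and 1688 CPM) and -0.72 in muscle (2527 and 4158 CPM). mt-Nd2 had 0.9 in urothelium (3968 and 2121 CPM) and -1.16 in muscle (2478 and 5542.5 CPM). mt-Nd6 had 2.6 in urothelium (92.1 and 15.1 CPM), 1.37 in stroma (45.1 and 17.3 CPM) and -0.75 in endothelium (31.8 and 53.8 CPM).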

How the results depend on the processing

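No paired analysis was possible because each group had 1 library, and for the same reason no replicate could be left out. Of 513 medians recomputed under alternatives, 451 stayed within the interval of the reported median, 53 moved outside it and 9 reversed; the causes were not tested. With the TMM scaling the nuclear median of 1-day over bladder urothelium was -0.12 (mt- median -0.88) and that of stroma 1.01; of 7-day over bladder, 0.0081 in urothelium, 0.91 in stroma and 0.24 in muscle; of 7-day over 1-day, 0.12 in urothelium (mt- 0.57) and -0.10 in stroma; and of hypoxic over non-hypoxic 7-day cells, -0.13. With cells thinned to 2500 UMIs it was 0.31 for 1-day over bladder urothelium, 0.11 and 0.54 for 7-day over bladder urothelium and endothelium, and -0.15 (mt- -0.083), -0.20 and -0.26 for 7-day over 1-day stroma, muscle and endothelium. With each cell weighted equally it was 0.48 and 0.38 for 7-day over bladder stroma and endothelium (mt- of muscle -0.28), and -0.20 (mt- -0.11), -0.22 (mt- 1.08) and -0.39 for 7-day over 1-day stroma, muscle and endothelium. With no class margin it was 0.10 and 0.071 for 1-day and 7-day over bladder muscle, and the mt- median of 7-day over 1-day muscle was 0.11, against 0.94 with a margin of 3. Without mt- and ribosomal genes it was -0.076 for 7-day over 1-day urothelium, and -0.061 and 0.065 for hypoxic over non-hypoxic 1-day and 7-day cells. With a hypoxia cut of 20 the mt- median of 1-day cells was -0.60.

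With assembloid-side 7-day cells only, the nuclear median over bladder was 0.24 in urothelium (mt- -0.42) and 0.86 in endothelium, and the mt- median of muscle was -1.23. Against 1-day cells it was 0.0055 in urothelium, -0.0055 in muscle (mt- 0.0022) and 0.058 in endothelium, and the urothelial ratios of Ndufa4, Cox4i1, mt-Nd6, mt-Cytb, mt-Atp6 and Ndufv3 were -0.11, -0.056, 0.029, -0.057, -0.038 and 0.10. Between hypoxic and non-hypoxic cells it was -0.0062, with mt-Nd6 at -0.16.

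Within libraries, the median of urothelial over stromal cells was 0.16 (7-day) and 1.05 (bladder) with the TMM scaling, that over muscle 0.036 and 0.27, and that over endothelium 0.61, 0.24 (1-day) and 1.24. Without mt- and ribosomal genes these were 0.089 and 0.93 over stroma, -0.084, -0.16 (1-day) and 0.12 over muscle, and 0.31, 0.14 (1-day) and 0.93 over endothelium. With each cell weighted equally the 7-day values were 0.086 over stroma and 0.29 over endothelium, and with bladder-side cells only, a choice made after seeing the data, 0.59 and 0.64; with no class margin the 1-day value over muscle was -0.15.

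Counts of members called moved further than medians. Over the alternatives, including a call at 2-fold, 0 to 9 urothelial, 27 to 61 stromal, 11 to 28 muscle and 28 to 55 endothelial members were higher in 1-day than in bladder cells, and 0 to 6, 21 to 56, 2 to 20 and 16 to 57 in 7-day than in bladder cells. From 0 to 9 urothelial members were lower in 1-day than in bladder cells, and 0 to 14 muscle and 0 to 19 endothelial members were lower in 7-day than in 1-day cells. Of hypoxic over non-hypoxic 7-day cells, 0 to 6 members were higher and 0 to 7 lower. Of the 13 mt- genes, 0 to 8 were lower in 1-day than in bladder urothelium, 8 to 12 in muscle and 1 to 5 in endothelium, and 0 to 7 were lower in hypoxic than in non-hypoxic 1-day cells. The shallow classes (79 muscle cells of the 1-day and 46 pericytes of the 7-day library) limit what their single genes can show.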

Other observations

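Of 12 genes that help to assemble complex IV, 7 were measured in stroma; 5 were called higher in 1-day than in bladder cells and 1 lower, where 33.2% of all genes tested were called higher and 27.2% lower. Cox18, which inserts part of the mitochondrially encoded Cox2 into the inner membrane, had 3088 UMIs in 1-day and 122 UMIs in bladder stroma (a log2 ratio of CPM of 1.79 [1.54, 2.07]). Cox17, a copper chaperone, had 78.9 and 31.0 CPM (1.34), and Sco2, another copper-binding assembly factor, had 34.1 and 11.7 CPM (1.54). Surf1, an assembly factor mutated in Leigh syndrome, was the one called lower, at 29.3 and 50.5 CPM (-0.78). In muscle 3 of 7 were called higher and 0 lower (27.5% and 35.7% of all genes tested), among them Cox18 at 2.78 [2.10, 3.52], from 50 and 28 UMIs.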
